A study of Mus musculus with 14 samples.

Results

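H3K27ac, the acetylation of histone H3 at lysine 27, was mapped once in wild-type (WT) embryoid bodies and once in embryoid bodies whose CTCF carries arginine in place of lysine 20 (K20R). The members are the broad peaks of these 2 libraries at day 4: 38982 in WT and 45318 in K20R, 84300 of the 529983 peaks listed over the 10 ChIP-seq samples of the series that have a peak list. A peak that overlapped a peak of the other list by at least 1 bp was called shared, and any other peak was called WT-only or K20R-only. Both genotypes derive from E14Tg2A mouse embryonic stem cells, which had been kept on mitomycin-treated feeder fibroblasts with LIF and 2 inhibitors and were then aggregated in hanging drops in serum without LIF. K20R was introduced by CRISPR/Cas9, and the sources used here do not say how many clones the library represents, so the mutation and the clone cannot be told apart. With 1 library per genotype there was no replicate check, every difference below describes these 2 libraries, and no p-value was computed for H3K27ac. Intervals are 95% Wilson binomial intervals and cover counting error only.

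H3K27ac is deposited by the acetyltransferases CBP and p300 and marks active promoters and active enhancers. It separates active enhancers from those that carry only the priming mark H3K4me1, and broad stretches of it lie over genes that define a cell's identity. CTCF shapes the loops through which distant enhancers reach promoters. In embryoid bodies, cells leave pluripotency through a formative epiblast state and then activate primitive streak genes such as T and Eomes under Nodal, BMP, Wnt and FGF signals.

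A segment at 40 to 70 Mb of chromosome 14 and one of 50 Mb on chromosome 8 that begins at 65 Mb, where copy number may differ between the lines, were set apart, and all values are from outside them unless they are named. The remaining lists held 37391 peaks over 53.4 Mb in WT and 43228 peaks over 62.9 Mb in K20R.

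The sequences shown are those of 5 promoters of genes named in the comparison of gene groups. Peaks covered the promoters of Wnt3, a streak-inducing ligand, and of Cer1, a secreted Nodal, BMP and Wnt antagonist, in WT alone. Cer1 is grouped with the endoderm genes, of which Cubn had a promoter peak in K20R alone. A peak covered the promoter of Fgf4, an autocrine growth factor of pluripotent cells, in K20R alone. At Zfp42, which encodes the stem cell marker REX1, a K20R peak covered the run shown, and the WT peak of 310 bp lay 17 bp from the start, outside the run. At T, which encodes Brachyury, the WT peak lay 463 bp from the start site and no K20R peak was near. The runs are RefSeq promoters of the GRCm38.p6 build, 300 bp each, written 5′ to 3′ along the gene's strand. They lie at chr11:103773925-103774224 (plus strand), chr4:82885102-82885401 (minus strand), chr17:8434173-8434472 (plus strand), chr7:144861136-144861435 (plus strand) and chr8:43306960-43307259 (minus strand). Capitals mark exact matches, on either strand, to any of 12 short motifs spelled out with the sequence results. The match in Wnt3, both matches in T and the match in Fgf4 were to the SP/KLF motif GGGCGGG, which 25.6% of 32851 RefSeq promoters hold. Zfp42 held the POU octamer ATGCAAAT, present in 1.74% of promoters, then the SP/KLF motif in 2 places and the TEAD motif GGAATG, present in 14.7%. Cer1 held none of the 12, which says only that these letters are absent from this window.
Wnt3 promoter: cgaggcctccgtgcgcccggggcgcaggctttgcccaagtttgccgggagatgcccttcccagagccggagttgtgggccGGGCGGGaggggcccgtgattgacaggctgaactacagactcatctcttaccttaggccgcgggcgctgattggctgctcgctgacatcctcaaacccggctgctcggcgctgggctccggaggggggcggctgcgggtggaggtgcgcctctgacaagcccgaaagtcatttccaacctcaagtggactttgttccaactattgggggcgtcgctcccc
Cer1 promoter: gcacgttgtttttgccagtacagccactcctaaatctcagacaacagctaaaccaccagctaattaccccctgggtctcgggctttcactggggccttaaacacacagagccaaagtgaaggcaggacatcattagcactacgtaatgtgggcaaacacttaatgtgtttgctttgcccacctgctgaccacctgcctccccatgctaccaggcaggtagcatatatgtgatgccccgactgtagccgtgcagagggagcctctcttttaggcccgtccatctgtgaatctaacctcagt
T promoter: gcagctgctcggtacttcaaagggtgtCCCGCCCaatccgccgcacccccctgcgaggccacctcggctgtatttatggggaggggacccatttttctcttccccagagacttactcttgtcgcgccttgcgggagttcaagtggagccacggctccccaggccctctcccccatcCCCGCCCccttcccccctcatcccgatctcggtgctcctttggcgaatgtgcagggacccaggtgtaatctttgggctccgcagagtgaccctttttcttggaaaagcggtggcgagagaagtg
Fgf4 promoter: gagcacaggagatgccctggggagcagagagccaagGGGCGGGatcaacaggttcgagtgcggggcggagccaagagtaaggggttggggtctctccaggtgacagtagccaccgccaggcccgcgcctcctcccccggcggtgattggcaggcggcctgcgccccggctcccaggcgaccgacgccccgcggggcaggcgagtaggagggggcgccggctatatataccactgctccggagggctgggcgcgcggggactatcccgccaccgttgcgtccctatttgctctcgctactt
Zfp42 promoter: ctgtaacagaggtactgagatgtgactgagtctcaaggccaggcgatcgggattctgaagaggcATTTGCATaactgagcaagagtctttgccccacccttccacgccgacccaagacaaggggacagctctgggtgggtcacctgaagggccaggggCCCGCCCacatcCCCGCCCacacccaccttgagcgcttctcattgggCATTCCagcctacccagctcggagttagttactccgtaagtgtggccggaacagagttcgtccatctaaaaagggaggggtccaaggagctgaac

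The first question was how much of the acetylated genome the 2 genotypes had in common. In WT, 23534 peaks (62.9%, 62.4 to 63.4) were shared, and in K20R, 23079 peaks (53.4%, 52.9 to 53.9). Shared peaks were the long ones. They held 82.9% of the acetylated length of WT and 77.9% of that of K20R, and the sequence covered in both lists amounted to 34.4 Mb. Sharing followed strength closely. In the lowest decile of WT peaks by fold enrichment over the local background, 31.1% were shared, and in the highest decile 99.8%. In K20R these values were 23.4% and 99.4%.

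**Figure D1:**
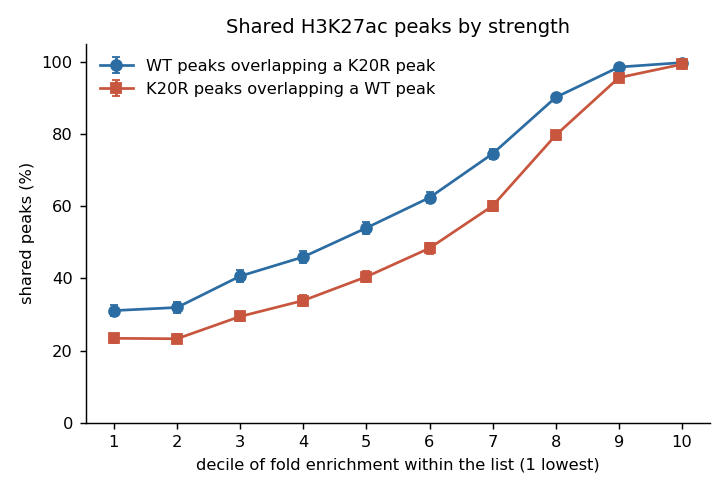
Share of H3K27ac peaks (y axis, %) that overlap a peak of the other genotype, by decile of fold enrichment within each list (x axis), with 95% Wilson intervals as bars. The WT curve goes from 31.1% in the lowest decile to 99.8% in the highest and the K20R curve from 23.4% to 99.4%, with K20R below WT in every decile.

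A −log10 q of 5 or more was reached by 9563 peaks in WT and 9583 in K20R. Only 176 of these WT peaks and 285 of these K20R peaks met no peak in the full list of the other genotype. These were 1.27% of WT-only and 1.41% of K20R-only peaks. When both lists were first limited to that threshold, 83.6% of WT and 83.3% of K20R peaks were shared. Many unshared peaks had a neighbour in the other list: 58.2% of WT-only peaks lay within 5 kb of a K20R peak and 49.7% of K20R-only peaks within 5 kb of a WT peak, whereas 10.0% and 10.1% were over 50 kb away. The share over 50 kb away was thus similar in both lists.

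Merging both lists gave 55747 regions, of which 21741 were acetylated in both genotypes, 13857 in WT only and 20149 in K20R only. Within the regions acetylated in both, the median log2 ratio of K20R to WT covered length was 0.15, with quartiles of -0.35 and 0.71. The K20R stretch was at least 2 times as long in 3757 regions (17.3%) and the WT stretch in 2167 (9.97%). The lists hold no read counts, the depth behind them is unknown, and a difference in depth or enrichment between the 2 libraries cannot be told apart from a difference in genotype in these totals.

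The next question was where shared and unshared peaks lie. A promoter peak was one within 1 kb of an annotated transcript start. Promoters took 43.0% of the shared WT peaks and 43.8% of the shared K20R peaks. They took 8.26% (7.82 to 8.73) of WT-only peaks and 8.64% (8.26 to 9.03) of K20R-only peaks, a similar share. Read the other way, 89.8% of WT promoter peaks and 85.3% of K20R promoter peaks were shared, against 51.4% and 41.3% of distal peaks. Most unshared peaks were distal and within genes: 76.2% of WT-only and 71.6% of K20R-only peaks. This held for the lists as deposited: with both limited to a −log10 q of 5 or more, promoters took 55.2% of WT-only and 34.9% of K20R-only peaks. Peaks between genes made up 15.6% of WT-only and 19.7% of K20R-only peaks, so the K20R-only set held the larger share of intergenic peaks.

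Unshared peaks were narrow. The median width was 1294 bp in shared WT and 1503 bp in shared K20R peaks, but 542 bp in WT-only and 565 bp in K20R-only peaks. At promoters, the medians were 1699 bp and 1918 bp for shared peaks and 555 bp and 588.5 bp for WT-only and K20R-only peaks. Distal shared peaks had medians of 1042 bp and 1220 bp. Of peaks under 500 bp wide, 36.1% of WT and 23.5% of K20R peaks were shared. Of those 5 kb wide or more, all but 2 of 1409 WT peaks and all but 5 of 1777 K20R peaks were shared.

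**Figure D2:**
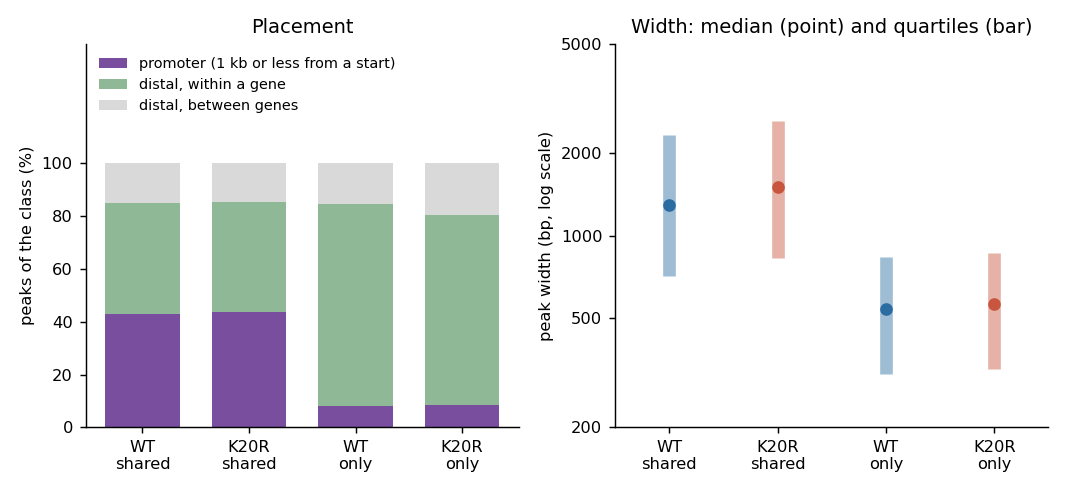
Left, share of peaks (y axis, %) at promoters, distal within genes and between genes for shared and unshared peaks of each list; right, median width (point) and quartiles (bar) in bp on a log scale. Promoters make up 43.0% and 43.8% of the shared classes against 8.26% and 8.64% of the unshared classes, and unshared medians are 542 and 565 bp.

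The widest peaks were shared. In WT the widest was 49286 bp over Trim71, the stem cell gene LIN41, followed by 33797 bp over Rbpms2. In K20R the widest was 38419 bp over Mcl1, an anti-apoptotic BCL2 relative, where the WT peak was 28022 bp. The widest unshared peaks were modest in strength. They measured 5870 bp at Prob1 for WT (fold enrichment 3.61) and 7497 bp near Serbp1 for K20R (fold enrichment 3.30). The Serbp1 peak ended 236 bp from the nearest WT peak.

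The strongest unshared peaks were also mostly short. Of the 10 WT-only peaks with the highest −log10 p, 6 lay at promoters and 6 were under 700 bp wide. Of the 10 K20R-only peaks, 2 lay at promoters and all 10 were under 700 bp. In WT these included the promoter of Robo1, which encodes an axon guidance receptor (688 bp, fold enrichment 8.57), and that of the tubulin polyglutamylase gene Ttll7 (232 bp, fold enrichment 9.77). The nearest K20R peaks to them were 453522 bp and 38667 bp away. The Robo1 peak held a CTCF peak in both WT libraries and in neither K20R library of day 4. In K20R the strongest was an intergenic peak of 458 bp, 14283 bp from the start of Trmo, with a fold enrichment of 13.7. It overlapped a CTCF peak in all 4 day 4 CTCF libraries. The promoter of Ttc30a1, an intraflagellar transport gene, followed with a fold enrichment of 11.2.

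Some shared regions differed widely in rank. Strength was ranked within each list as the percentile of fold enrichment. The region at chr9:118484797-118490246, 6453 bp past the start of Eomes, was at percentile 80.2 in WT, where it was 5450 bp long, and at 1.26 in K20R, where 583 bp of it was covered. It was the second largest difference in favour of WT among the 21741 regions, after one of 391 bp near Gaa (83.0 against 3.19). In the other direction, a region of 757 bp in WT and 559 bp in K20R, 38909 bp from the start of Tcf7l1, a transcriptional repressor of the Wnt pathway, was at percentile 1.88 in WT and 89.8 in K20R.

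The comparison then turned to genes. Of 20927 protein-coding genes, 9860 had a promoter peak in both genotypes, 493 in WT only and 728 in K20R only. The background for the gene lists is therefore 2.36% for WT only, 3.48% for K20R only, 47.1% for both and 47% for neither. Of the 11081 genes with a promoter peak in either list, 4.45% had it in WT only and 6.57% in K20R only. Genes marked in 1 genotype had weak peaks: the median −log10 p of the strongest promoter peak was 4.50 for WT-only and 4.26 for K20R-only genes, against 14.9 in WT and 12.7 in K20R for genes marked in both. At a −log10 q of at least 5 the order turned, with 839 WT-only and 476 K20R-only genes. Acetylated length was the number of bp under peaks within 25 kb of a gene's starts. It was called longer in a genotype if it reached 2 kb and at least 2 times the other value. By this rule 410 genes (1.96%) were longer in WT and 1443 (6.9%) in K20R. The summed length over all genes was 1.15 times as large in K20R as in WT.

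Markers of the embryoid body's possible cells were checked by promoter peaks. All 11 formative epiblast genes, among them Fgf5, Dnmt3a, Dnmt3b and Pou3f1, had a promoter peak in both genotypes. With both lists limited to a −log10 q of at least 5, 4 had one in both, 4 in WT only, 1 in K20R only and 2 in neither. Of all 20927 genes, 839 were WT-only and 476 K20R-only at that threshold. Fgf5 was called longer in WT (4.53 against 1.73 kb), 1 of 11 genes against 1.96% of all genes. In the full lists, only 2 of 21 cardiac genes, 4 of 18 neural ectoderm genes and 1 of 13 blood and endothelial genes had a promoter peak in either genotype. Of 14 fibroblast genes, which could mark leftover feeder cells, Thy1 and Fbln1 had a promoter peak in both, Vim and Twist1 in WT only, and the other 10, among them Col1a1, Col1a2, Col3a1, Postn and Dcn, in neither. Summed fibroblast length was 7.61 kb in WT and 4.15 kb in K20R. Its part in the other results was not tested. As these are bulk libraries, fewer cells of a type and less acetylation per cell cannot be told apart.

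**Figure D3:**
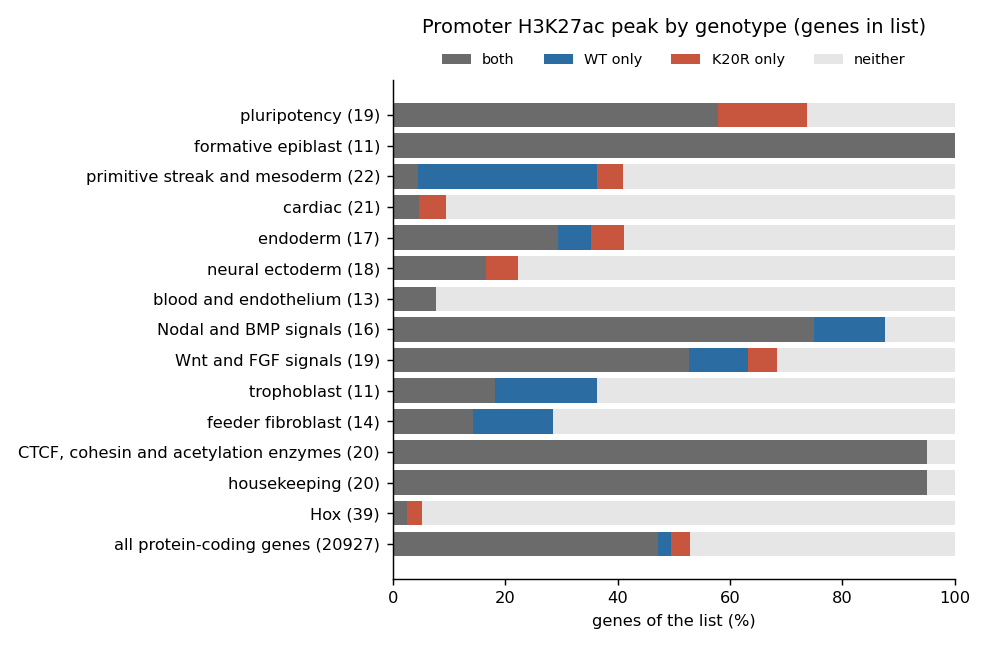
Share of the genes of each list (x axis, %) with a promoter H3K27ac peak in both genotypes, WT only, K20R only or neither; numbers in parentheses are genes outside both segments. The primitive streak and mesoderm list has 7 of 22 genes in WT only, against 2.36% of all protein-coding genes, and the pluripotency list 3 of 19 in K20R only, against 3.48%.

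Primitive streak and mesoderm genes were the list with most WT-only promoters. Of 22 genes, 7 had a promoter peak in WT only, 1 in K20R only, 1 in both and 13 in neither. The WT-only genes were T, Eomes, Gsc, Lhx1, Snai1, Sp5 and Pdgfra. T and Eomes encode the T-box factors that start mesoderm and endoderm formation, Gsc and Lhx1 encode homeodomain factors of the organizer, Snai1 encodes a repressor of E-cadherin that acts when cells leave the epiblast, Sp5 is a direct Wnt target and Pdgfra encodes a receptor of early mesoderm. Tcf15, a paraxial mesoderm factor, had its promoter peak in K20R only, and Tbx6 was marked in both. The 7 promoter peaks were weak in WT, with −log10 q between 1.18 at Gsc and 2.94 at Eomes, and none of the 7 passed a −log10 q of 5. Acetylated length over the 22 genes was 60.7 kb in WT and 40.9 kb in K20R. It was larger in WT at 13 genes and in K20R at 4, beside 5045 and 9595 of all protein-coding genes. Against the 1.96% background, 4 genes were called longer in WT (T, Eomes, Snai1 and Nkx1-2), and against 6.9%, Tcf15 was called longer in K20R. Within 10 kb of the starts 1 of the 22 genes was called longer in WT and 0 in K20R, beside 359 and 1015 of all 20927 genes. Within 50 kb 3 were called longer in WT and 1 in K20R, beside 421 and 1643. The WT and K20R sums over the 22 genes were 31.8 and 20.3 kb within 10 kb, and 87.7 and 81.4 kb within 50 kb. Within 25 kb, Tbx6 alone held 36.8 kb of the WT and 30.1 kb of the K20R length.

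T had 4 WT peaks within 25 kb of its start. The nearest to the start, chr17:8433490-8433960, had a fold enrichment of 3.55, and the upstream peaks at chr17:8429800-8430561 and chr17:8408610-8409526 had fold enrichments of 4.34 and 4.40. No K20R peak was within 25 kb, and the gap from these peaks to the nearest K20R peak was at least 35826 bp. Eomes had 6.57 kb of acetylation in WT and 0.583 kb in K20R. Its start carried a WT peak of 1120 bp with a fold enrichment of 3.53, and the nearest K20R peak to it was 9268 bp away. Within 25 kb the CTCF libraries held 5 and 4 peaks around T in WT and 2 and 4 in K20R, and 6 and 6 against 4 and 4 around Eomes. Over the genome the K20R lists held 0.677 and 0.772 times as many CTCF peaks as the WT lists, so these counts set neither gene apart.

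Signals that act on the streak gave a mixed picture. Of 19 Wnt and FGF genes, 10 had a promoter peak in both, Wnt3 and Fgf8 in WT only, and Fgf15 in K20R only. Wnt3 had a WT peak of 3956 bp over its start (fold enrichment 3.43), and the nearest K20R peak to either of its WT peaks was 62941 bp away. Fgf8, which drives cell movement out of the streak, lay under a single WT peak of 18583 bp with a fold enrichment of 6.91. In K20R the peak there was 5969 bp long and began 3232 bp from the Fgf8 start, and acetylation around the gene was 8.47 kb against 21.7 kb. That K20R peak covered the start of the neighbouring Npm3, so both genes share these peaks. Axin2, a negative-feedback target of Wnt, had a promoter peak in both lists, with 7.42 kb in WT and 2.47 kb in K20R. Wnt8a had 10.4 kb and 5.17 kb. Of the 19 genes, these 4 (Wnt3, Fgf8, Axin2 and Wnt8a) were called longer in WT, against 1.96% of all genes. Fgf15 and Fgf3 were called longer in K20R, against 6.9%, with 0.758 against 4.32 kb and 0.841 against 5.41 kb. Fgf3, Fgf4 and Fgf15 are neighbours on chromosome 7, and the Fgf3 peaks are also counted for Fgf4 in the pluripotency list, so these calls are not independent. Within 10 kb of the starts, 4 of the 19 genes were called longer in WT and 1 in K20R, beside 359 and 1015 of all 20927 genes. Within 50 kb, 2 were called longer in WT and 3 in K20R, so the order of these counts turned. Over all genes the counts within 50 kb were 421 in WT and 1643 in K20R.

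Of 16 Nodal and BMP genes, 12 had a promoter peak in both. Nodal itself had 22.0 kb in WT and 16.3 kb in K20R, and Lefty1 and Lefty2, its secreted inhibitors, had 9.05 against 12.6 kb and 10.4 against 10.4 kb. Id3, a BMP target, and Chrd, a BMP antagonist, had promoter peaks in WT only. Id3 had 5.75 kb in WT and 0.866 kb in K20R, and Chrd had 9.58 and 6.38 kb. Gdf3, with a promoter peak in both, had 3.195 kb in WT and 7.30 kb in K20R. Id3 was the 1 gene of the 16 called longer in WT, against 1.96% of all genes. Gdf3 was the 1 called longer in K20R, against 6.9%. Length was larger in WT at 7 of the 16 genes and in K20R at 7, beside 5045 and 9595 of all genes. The antagonist Cer1, grouped with endoderm genes, had 1 WT peak of 2134 bp over its start (chr4:82884490-82886623, fold enrichment 4.56) and the nearest K20R peak was 347083 bp away.

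Pluripotency genes differed in the other direction. Of 19 genes, 11 had a promoter peak in both, 3 in K20R only (Klf4, Fgf4 and Dppa2) and none in WT only. With both lists limited to a −log10 q of at least 5, none of these 3 was K20R-only, 3 other genes were, and 1 was WT-only. At that threshold 476 of all 20927 genes were K20R-only and 839 WT-only. Acetylated length over the 19 genes was 114.9 kb in WT and 151 kb in K20R, a ratio of 1.31 beside the 1.15 over all genes. K20R was larger at 14 genes and WT at 4, beside 9595 and 5045 of all protein-coding genes. Of the 19 genes, 5 were called longer in K20R and none in WT: Zfp42, Dppa2, Dppa3, Dppa5a and Fgf4. Over all genes 6.9% were called longer in K20R and 1.96% in WT. Fgf4 had 0.841 kb in WT and 5.80 kb in K20R. Its K20R peaks covered the promoter (1444 bp, fold enrichment 3.60) and the region at chr7:144855405-144859369, where WT had a peak of 841 bp. Dppa5a, a germ cell and stem cell RNA-binding gene, had 6.77 kb in 5 WT peaks and 19.0 kb in 4 K20R peaks, 1 of which was 12151 bp long. Zfp42 had 0.310 kb and 3.52 kb. The core factor genes differed by less than 2-fold. Pou5f1 had 11.02 and 13.1 kb, Nanog had 17.8 and 15.2 kb, and Sox2 had 6.83 and 13.4 kb, each with a promoter peak in both genotypes. Neighbouring genes such as Dppa2 with Dppa4, and Dppa3 with Gdf3, share peaks and are not independent.

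**Figure D4:**
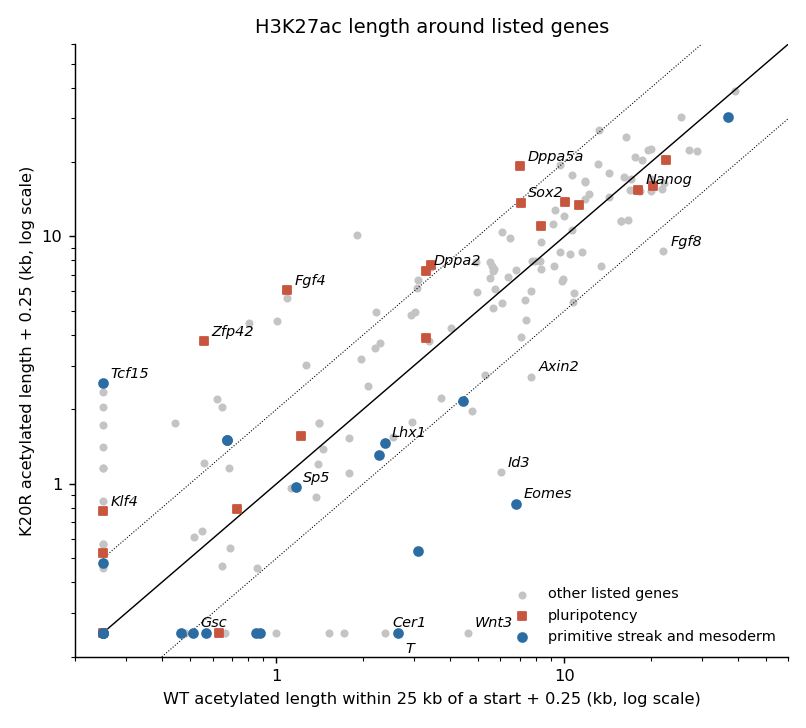
Acetylated length within 25 kb of the starts of each listed gene in WT (x axis) and K20R (y axis), in kb plus 0.25 on log scales, with the line of equality and dotted lines at 2-fold. T, Cer1 and Wnt3 lie on the floor of the K20R axis, Eomes lies far below the line (6.57 against 0.583 kb), and Fgf4, Zfp42 and Dppa5a lie above the upper dotted line.

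Most genes listed as housekeeping were marked in both genotypes. Of 20 housekeeping genes 19 had a promoter peak in both lists, as did 19 of 20 genes for CTCF partners and acetylation enzymes, among them Crebbp, Ep300, Rad21, Smc1a and Smc3. Hprt and Hdac8 had none in either, and the reason was not tested. Summed length was 238 and 267 kb over the housekeeping genes, a ratio of 1.12, and 192 and 215 kb over the CTCF, cohesin and enzyme genes, also a ratio of 1.12. Rplp0, a ribosomal protein gene, was the 1 housekeeping gene called longer in K20R (9.41 and 19.1 kb). Of the 20 CTCF, cohesin and enzyme genes, 2 were called longer in K20R, against 6.9% of all genes. They were Crebbp (2.825 kb in WT and 5.93 kb in K20R) and Kat2b (12.955 and 26.8 kb). Hdac6, which encodes a deacetylase, was called longer in WT (5.05 and 2.52 kb), 1 of 20 against 1.96%. With both lists limited to a −log10 q of at least 5, 15 of these 20 genes had a promoter peak in both, 3 in WT only and 2 in neither. At that threshold 839 of all 20927 genes were WT-only and 476 K20R-only.

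Outside the lists, the largest difference in favour of K20R was at Celf1, an RNA-binding gene, with 19.5 kb in WT and 47.6 kb in K20R. Jade1, a chromatin reader of histone acetyltransferase complexes, had 12.8 and 34.0 kb, and Ncor1, a nuclear receptor corepressor, 23.3 and 44.1 kb. In favour of WT, the largest was at Lenep (36.6 and 19.4 kb), whose neighbours Flad1 and Zbtb7b were also among the 10 largest. Epb41l2 had 26.2 and 10.6 kb and Suclg2, a mitochondrial succinyl-CoA synthetase subunit, 18.4 and 4.57 kb. Fgf8 and Npm3 were among the 10 genes with the largest differences in favour of WT.

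Distal unshared peaks mostly lay nearest to genes marked in both genotypes. For 79.3% of the 12712 WT-only and 77.1% of the 18409 K20R-only distal peaks the nearest protein-coding start belonged to such a gene, and for shared distal WT peaks the value was 78.2%. Distal peaks nearest to a gene with a WT-only promoter made up 2.70% of WT-only and 1.60% of K20R-only peaks. Those nearest to a gene with a K20R-only promoter made up 2.40% and 3.59%. Of shared distal peaks, those nearest to a gene with a WT-only promoter made up 2.48% in WT and 2.71% in K20R. Those nearest to a gene with a K20R-only promoter made up 2.97% and 2.81%. The 2.70% of WT-only peaks was thus near the shared shares.

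CTCF was measured in 2 libraries per genotype at day 4 and did not enter the choice of peaks. Outside the segments the WT lists held 58750 and 59079 CTCF peaks and the K20R lists 39766 and 45588, or 0.677 and 0.772 times as many in same-numbered libraries, so fewer CTCF peaks in K20R are the background for every value here. Of shared WT H3K27ac peaks, 20.9% and 20.7% overlapped a CTCF peak in the 2 WT libraries and 14.0% and 19.3% in the K20R libraries. Of WT-only peaks, 4.77% and 4.72% did so in WT and 2.75% and 3.67% in K20R, means of 4.74 ± 0.0357% and 3.21 ± 0.648% (SD, n = 2), a difference of -1.54 percentage points. The ratio of these means was 0.676, near the background ratios, and it was 0.800 at shared WT peaks and 0.846 at K20R-only peaks. Both K20R values lay below both WT values, and a design of 2 against 2 cannot go below the two-sided exact permutation p of 0.33 found here. For K20R-only peaks the difference was -1.20 percentage points (7.81% and 7.80% against 6.03% and 7.18%, exact permutation p = 0.33). Without the first K20R library it was -0.62, so that library set much of its size. Among H3K27ac peaks that overlapped CTCF in both WT libraries, the share with CTCF in neither K20R library was 24.9% (21.03 to 29.3) at distal WT-only peaks, 17.7% (15.8 to 19.7) at distal shared WT peaks and 12.9% (11.1 to 14.9) at distal K20R-only peaks. The same 4 CTCF libraries stand behind these 3 shares, and their intervals do not cover the spread between libraries, so no difference is read from them. The same share over all CTCF peaks is not given here, so no class is set against the genome.

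Sequence was read in the central 500 bp of each peak and, as a background, in windows of the same length 10 kb downstream. WT-only and K20R-only distal peaks had median GC contents of 45.9% and 46.4%, close to the 46.6% of shared distal WT peaks, and each class had a median of 5 CpG dinucleotides. Promoter peaks were less alike. The median was 26 CpG in shared WT promoter peaks, 10 in WT-only and 9 in K20R-only promoter peaks. At a −log10 q of 5 or more these medians were 29, 30 and 19, over 60 WT-only and 74 K20R-only promoter peaks, so the lower CpG count of WT-only promoter peaks was not seen among strong peaks. Repeat-masked bases made up a mean of 23.7% of WT-only, 25.03% of K20R-only and 25.98% of shared distal WT windows. At a −log10 q of 5 or more these means were 34.1% in 116 WT-only, 42.4% in 211 K20R-only and 30.5% in 1914 shared distal WT windows. Among distal peaks at that threshold, the unshared ones thus held the larger share of repeats. In unshared promoter peaks at that threshold the means were 13.1% in WT and 13.9% in K20R.

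The motifs were searched as exact letters on both strands. Families and letters were T-box with AGGTGTGA, GATA factors with AGATAAG, the POU octamer with ATGCAAAT, SOX factors with ACAATGG, TEAD factors with GGAATG, FOX factors with TGTTTAC, TCF/LEF factors with CTTTGAT, AP-1 with TGAGTCA, SP/KLF factors with GGGCGGG, ETS factors with CCGGAAG, YY1 with AAGATGG, and the CTCF core with AGGTGGCAG. The T-box motif was in 2.89% (2.61 to 3.19) of WT-only distal peaks against 2.19% of their shifted windows, which lay below that interval, in 2.50% of K20R-only peaks against 2.50%, and in 2.44% of shared peaks against 2.53%. The octamer was in 2.75%, 2.49% and 3.37% of WT-only, K20R-only and shared distal peaks, with 2.69%, 2.70% and 2.80% in their shifted windows. The SP/KLF motif was in 3.76%, 5.51% and 7.10%, against 3.83%, 4.07% and 4.50%. At a −log10 q of 5 or more it was in 6.90%, 34.1% and 13.1%, against 2.59%, 5.24% and 4.23%. Over all distal peaks, TEAD, FOX, AP-1 and CTCF core motifs had intervals above the shifted share in all 3 classes. AP-1 was in 10.7%, 11.2% and 11.7% against 8.41%, 8.08% and 8.12%. The CTCF core was in 1.38% (1.20 to 1.60) of WT-only, 1.21% (1.06 to 1.37) of K20R-only and 1.44% (1.25 to 1.65) of shared distal peaks, against 0.842%, 1.01% and 1.03%. A match is a run of letters, not a bound site.

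The segments set apart went in opposite directions. The chromosome 14 segment held 542 WT and 280 K20R peaks, a K20R to WT ratio 0.447 times that of the rest of the genome. The chromosome 8 segment held 1049 WT and 1810 K20R peaks, 1.49 times the ratio elsewhere. The same measure in the 4 same-numbered pairs of CTCF libraries was 0.820 to 0.844 on chromosome 14 and 1.10 to 1.15 on chromosome 8. In 432 windows of 5 Mb elsewhere the K20R to WT ratio of H3K27ac peaks had a median of 1.14 and reached from 0.625 to 2.21. The 5 windows of the chromosome 14 segment with enough peaks lay between 0.371 and 0.942, and 60 windows elsewhere were below the highest of them. The 9 counted windows of the chromosome 8 segment lay between 1.24 and 2.09, and 129 windows elsewhere were above the lowest of them.

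**Figure D5:**
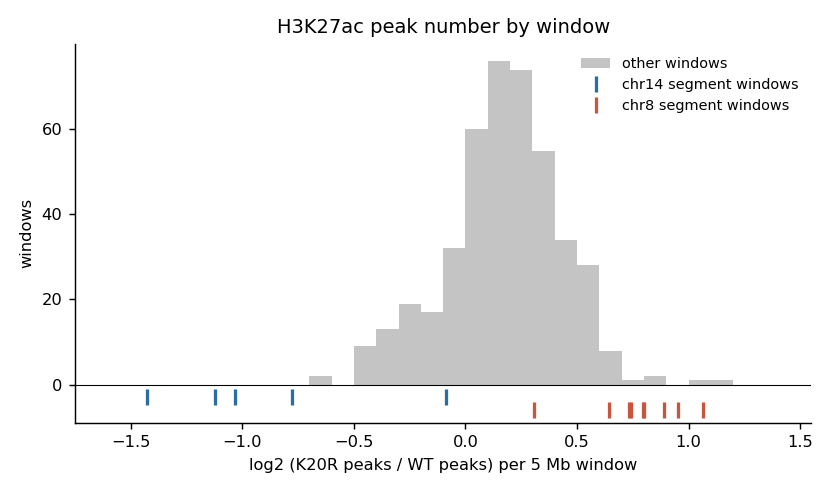
Number of 5 Mb windows (y axis) by log2 ratio of K20R to WT H3K27ac peak counts (x axis), with windows of both set-apart segments as ticks below the axis. The segment on chromosome 14 lies to the left of most windows (ratios 0.371 to 0.942) and that on chromosome 8 to the right (1.24 to 2.09).

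Genes in these segments followed their segment. Of 436 genes in the chromosome 14 segment, 31 had a promoter peak in WT only and 1 in K20R only, and 95 (21.8%) were longer in WT and none in K20R. Of 521 genes in the chromosome 8 segment, 36 had one in K20R only and 5 in WT only, and 165 (31.7%) were longer in K20R and none in WT. Otx2, a formative epiblast factor in the chromosome 14 segment, had 12.9 kb in WT and 5.99 kb in K20R. Klf2, a pluripotency factor in the chromosome 8 segment, had 3.37 and 11.8 kb. Ctcf also lies in the chromosome 8 segment and had a promoter peak in both lists, with 15.4 and 19.3 kb. For these genes the genotype and the copy number cannot be told apart, and peak lists cannot show the K20R base change itself.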

How the data were processed

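H3K27ac ChIP-seq of WT and K20R embryoid bodies (1 library each) and 4 CTCF libraries of the same day were used, with the day 0 CTCF lists for the segments; the 4 input samples were not analysed here. After trimming (Trim_Galore) and bowtie2 alignment against mm10, the authors dropped duplicates, blacklisted reads and reads of low mapping quality, subsampled the CTCF libraries, and called peaks per library with MACS2 (broad for H3K27ac). Subsampling of H3K27ac and the input used are not given in the sources used here. Per peak, the authors deposited the fold enrichment (a ratio over local background) and −log10 p and q values, averaged over a broad peak; the deposited integer score was not used. The authors' depth is unknown. Coordinates are 1-based.

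Starts and genes came from GENCODE M21 basic (21884 protein-coding genes), and sequence from GRCm38.p6, the same build. RefSeq promoters matched 177 of 266 listed genes by symbol. Overlaps, widths, placement and covered length were computed in Python 3.11.15 (pysam 0.24.0, scipy 1.17.1, pandas 2.3.3, numpy 2.4.6) and tested on simulated data. The members and the 14 gene lists were chosen with earlier results of these data known. Genes and peaks named were list members, the 10 strongest unshared peaks per genotype, the 5 widest per class, the 10 genes with the largest length differences and the 5 regions with the largest rank differences per direction. Groups came from sample titles. Alternatives tried were 50% overlap of the shorter peak, lists of equal length, joining peaks within 1 kb, a −log10 q threshold of 5, autosomes only, both segments included, other promoter and locus distances, a replicate block and leaving out each CTCF library.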

Additional observations from a re-analysis of the deposited data

How the results depend on the processing

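Of 96 alternative values for 14 results, 26 moved beyond counting error, or beyond 1.5 times for counts. The other 70 did not, which for the CTCF differences was judged by sign alone: at a −log10 q of at least 5 they were -5.57 points at WT-only and -3.02 at K20R-only peaks. No segment ratio or CTCF difference changed direction. Some orders between genotypes turned: the genes marked in 1 genotype at that threshold, the promoter share of unshared peaks at that threshold and within 3 kb, and the larger summed length in 5 of 14 gene lists under at least 1 setting. WT and K20R sums became 211 and 221 kb for Nodal and BMP genes within 50 kb, 69.97 and 65.8 kb for formative genes within 10 kb, 20.6 and 15.4 kb for endoderm genes and 8.01 and 7.42 kb for blood genes at the threshold. Within 50 kb, 2 Wnt and FGF genes were called longer in WT and 3 in K20R, beside 421 and 1643 of all genes. A −log10 q of at least 5 in both lists moved most. Shared peaks became 83.6% (WT) and 83.3% (K20R), promoters 55.2% of WT-only and 34.9% of K20R-only peaks, and median unshared widths 1400.5 bp and 1439 bp. Genes with a promoter peak became 839 in WT only and 476 in K20R only (493 and 728 without the threshold), genes longer in WT 617 (410), and the segment ratios 0.604 on chromosome 14 and 1.18 on chromosome 8. With lists of equal length, shared peaks were 60.2% and 58.7%, unshared widths 556 and 584.5 bp, and promoters 9.42% of K20R-only peaks. With 50% overlap, shared peaks were 57.9% and 49.1% and unshared widths 569 and 584 bp. Joining peaks within 1 kb gave 63.6% and 54.2% shared. Promoters within 3 kb made 18.4% of WT-only and 18.1% of K20R-only peaks, and within 500 bp 6.51% and 6.77%. The causes were not tested.

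Without each CTCF library in turn, the CTCF difference ranged from -1.995 to -1.08 points at WT-only peaks and from -1.78 to -0.62 at K20R-only peaks. A replicate block gave -1.54 and -1.20, by construction the unblocked values, with a smallest exact permutation p of 0.5. The labels do not say that a number marks a shared batch, and deviations of same-numbered libraries had a correlation of 0.015 over 468 windows.

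Limits are 1 H3K27ac library per genotype, unknown depth, a peak threshold that decides weak peaks, and neighbouring genes that share peaks. The same 7 primitive streak genes were WT-only under every setting tried on them except the −log10 q threshold, where there were 0. Pluripotency promoters marked in K20R only numbered 3, and 4 with promoters within 3 kb, 2 within 500 bp and 3 at the −log10 q threshold, where 1 was in WT only. The 3 at the threshold were other genes: none of Klf4, Fgf4 and Dppa2 was K20R-only there.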

Other observations

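Some lists with few promoter peaks still differed in acetylated length, given here as values without explanation. Of 13 blood and endothelial genes, Pecam1, an endothelial adhesion gene, had 1.66 kb in 2 WT peaks and 9.89 kb in 11 K20R peaks, and Lmo2, a blood cofactor, had 0 and 2.099 kb. Neither had a promoter peak in either list. Etv2, which specifies blood and endothelium, had 16.4 kb in 13 WT peaks and 11.4 kb in 5 K20R peaks, with no promoter peak. Over 21 cardiac genes, length was 14.1 kb in WT and 28.3 kb in K20R, a ratio of 2.00 beside 1.15 over all genes. It was larger in K20R at 9 genes and in WT at 1, beside 9595 and 5045 of all genes. Of the 21 genes, 19 had no promoter peak in either list. At a −log10 q of at least 5 the sums were 8.77 and 12.8 kb, and 1 gene was called longer in K20R. The myosin light chain genes Myl4 and Myl7 were called longer in K20R, 2 of 21 against 6.9% of all genes, with 2.85 against 6.41 kb and 1.96 against 4.70 kb, while Nkx2-5, Tbx5, Isl1, Hand2 and Mef2c had no peak within 25 kb in either list.

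Of 17 endoderm genes, 5 had a promoter peak in both lists, Cer1 in WT only, Cubn in K20R only and 10 in neither. Their summed length was 23.4 kb in WT and 24.7 kb in K20R. Hhex, a factor of anterior endoderm, had 0.554 kb in WT and 4.22 kb in K20R, with a promoter peak in both. Cer1 was the 1 gene called longer in WT, against 1.96% of all genes, and Hhex the 1 in K20R, against 6.9%. Sox17, Foxa1 and Foxa2 had no peak within 25 kb in either list. Of 11 trophoblast genes, Krt8 and Krt18 were marked in both, and Plet1 and Eomes, which the streak list also holds, in WT only.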
